A study of Mus musculus with 4 samples.

Results

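The immediate-early transcription factor genes examined here were Fos, Egr1, Jun, Junb and Myc. They were taken as the rows of the deposited table that carry a transcript ID and overlap the mm9 position of each gene, which gave 5 of 17576 loci, 1 row per gene. Of all loci, 15883 carry a transcript ID. The study profiled polyA RNA from mouse embryonic fibroblasts (MEFs, fibroblasts grown from embryos) of strain C57BL/6, in which a cDNA for HA-tagged histone H3.3 takes the place of the H3f3b locus; every group carries this knock-in. Its 4 libraries, 1 per group, cross pretreatment (naive or pretreated) with 0 h or 1 h of interferon-beta at 100 U/ml. The libraries compared were the naive and the pretreated one at 1 h. Unstimulated libraries (0 h) were not used here, so the response of these genes to 1 h of interferon was not measured, and a difference between the libraries may already have been there before stimulation. The agent, dose and length of the pretreatment are not stated in the labels beyond the interferon-beta treatment, and the labels name RNA-seq for the series but scTSS-seq for each sample.

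Immediate-early genes are switched on within minutes of a stimulus from factors already present in the cell, without new protein synthesis. Serum, growth factors and stress reach them through kinase cascades that act on SRF with its ternary complex partners and on CREB, and their mRNAs and proteins are usually short-lived. In fibroblasts, serum is the classic inducer, and the cells of this study were cultured with serum. Type I interferon signals mainly through receptor-bound JAK kinases, a route separate from the SRF route. Fos encodes c-Fos, which pairs with a Jun protein to form the AP-1 factor; Jun and Junb encode 2 of those partners. Egr1 encodes a zinc-finger factor, and Myc a helix-loop-helix leucine-zipper factor that drives growth and cell division.

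All 5 genes had a higher FPKM (fragments per length of transcript and per mapped fragments of the library) in the naive than in the pretreated library, by very different amounts. Fos was 2.73 FPKM in the naive and 0.683 FPKM in the pretreated library, so that the pretreated level was 24.97% of the naive level. The pretreated level was 51.7% of the naive level for Junb, 79.0% for Jun, 83.5% for Egr1 and 99.5% for Myc. Changes are given below as the difference of log2(FPKM + 1), pretreated minus naive, a scale that understates the change of low genes. On it, 1 of the 5 genes, Fos, was lower by 2-fold or more and 0 were higher by that much. The background was all 10228 loci whose FPKM averaged 1 or more over the libraries, which included all 5 genes; 7.12% of them were lower by 2-fold or more and 2.83% higher. The median change was -0.24 over the 5 genes and -0.16 over all loci compared. A lower value in the pretreated library was thus common: 62.2% of all loci compared had a lower change than Myc, at -0.0064. Centred on the median of all loci compared, 4 of the 5 genes were below 0 and 1 was above. Since each group is a single library (n = 1), these values carry no error over cultures and no test across cultures was possible. Variation between cultures cannot be told apart from an effect of pretreatment.

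**Figure D1:**
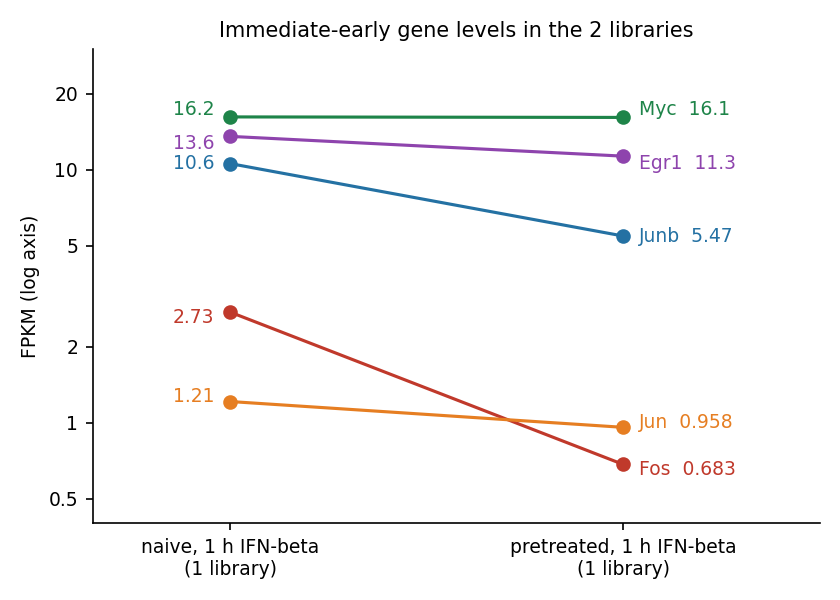
FPKM of the 5 genes (log axis) in the naive and the pretreated library, both at 1 h of interferon-beta; each point is 1 library and lines join the same gene. The line of Myc is flat at 16.2 and 16.1 FPKM, while Fos goes from 2.73 to 0.683 FPKM and crosses Jun.

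The names were checked against annotation of GRCm38, a later build, by chromosome and genomic span only. The Jun row spans 3187 bp and the Egr1 row 3750 bp, equal to the RefSeq genes of those names. The GENCODE gene of Egr1 is longer, at 5162 bp. The Junb row spans 4235 bp, equal to the GENCODE gene, which joins a protein-coding transcript and a short processed transcript downstream of it; the RefSeq gene spans 1840 bp. The Fos row, at 3369 bp, was 16 bp shorter than the RefSeq gene, and the Myc row, at 5140 bp, was 119 bp longer. For each of the 5 rows, the number of other rows of the table that overlap it was 0.

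Fos, the partner that Jun proteins need to form the most active AP-1 pairs, lies on chromosome 12 from 86814851 to 86818219 in mm9, on the plus strand, and its row holds 1 transcript. Its main GENCODE transcript has 4 exons and 2108 bases. The naive library gave 2.73 FPKM and the pretreated library 0.683 FPKM, a change of -1.15 and a plain log2 ratio of -2.0015. In the naive library Fos stood above 57.1% of loci with a transcript ID, and in the pretreated library above 37.7%. Of the 10228 loci compared, 538 (5.26%) had a lower change than Fos. Changes at loci of similar level were taken for comparison. Among the 1693 loci with a transcript ID and a mean FPKM from 1 to under 2, which include Fos, 95% of the changes lay between -0.83 and 0.80, and 1.12% were at least 2-fold lower. In the same class, 8 of the 1691 other loci above 0 in both libraries (0.473%) had a plain ratio as low as that of Fos.

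The authors' deposited table calls Fos lower in the pretreated library, with a q-value of 0.00233, and calls 0 of the 5 genes higher. In the authors' deposited table, 11.9% of 13388 tested loci were called lower and 3.91% higher at a q-value under 0.05. That test sets the reads of 1 library against those of the other and says nothing of the spread between cultures. Dividing the log2 ratio by the statistic in the authors' deposited table gives the standard error assumed for the ratio, which for Fos was 0.515 (log2) and put the 95% interval between -3.01 and -0.99. These intervals hold no variation between cultures. The call at 2-fold sits close to its threshold on the log2(FPKM + 1) scale: after centring on the median of all loci compared, the change of Fos was -0.99, and 0 genes passed 2-fold in either direction, against 5.15% of all loci lower and 4.14% higher. The FPKM value of 1 read also differed: at 14 short loci 1 pretreated read was worth 2.03 naive reads. If FPKM was scaled by mapped fragments alone, the pretreated library had 0.492 of the naive depth, but that scaling is not known. At this value per read, the low pretreated value of Fos rests on fewer reads than the same FPKM in the naive library. The part of depth in its change was not tested.

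**Figure D2:**
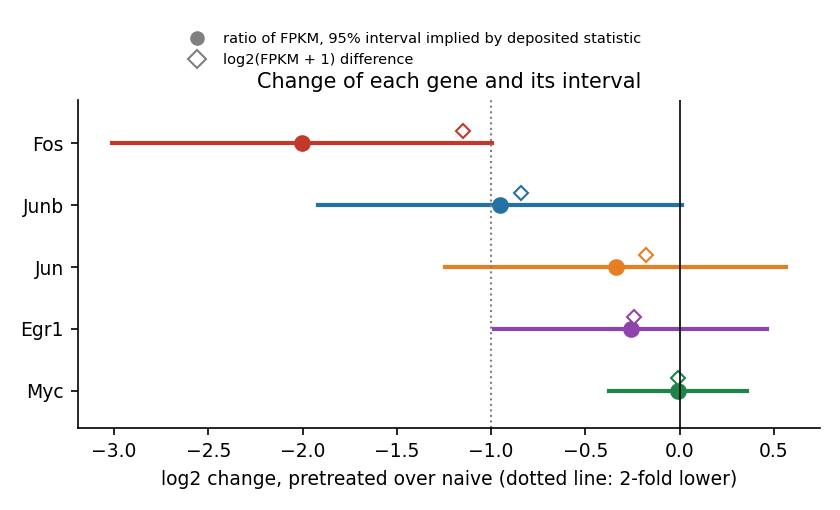
Change of each gene, pretreated over naive, on the log2 scale: filled circles are plain FPKM ratios with the 95% interval implied by the statistic in the authors' deposited table, and open diamonds are differences of log2(FPKM + 1). The interval of Fos ends at -0.99, and that of Junb, from -1.92 to 0.013, just includes 0.

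Among the 5 genes, Fos and Junb had the lowest changes and Jun, of the same complex, did not. Jun and Junb were not set apart by the reads: Jun minus Junb in log2 ratio was 0.61, with a 95% interval from -0.71 to 1.935. The authors' deposited table makes no call for Junb (q-value 0.183). The promoters of these AP-1 genes are shown as given in the RefSeq promoter table (GRCm38.p6). Each runs from 250 bases before to 50 bases after the RefSeq start, 5′ to 3′ on the gene's strand; capitals mark a TATA box (TATAAA) or the core of the cAMP response element (TGACG), searched on both strands. They lie at chr12:85473640-85473939 (Fos, plus strand), chr8:84978699-84978998 (Junb, minus strand) and chr4:95052173-95052472 (Jun, minus strand).
Fos: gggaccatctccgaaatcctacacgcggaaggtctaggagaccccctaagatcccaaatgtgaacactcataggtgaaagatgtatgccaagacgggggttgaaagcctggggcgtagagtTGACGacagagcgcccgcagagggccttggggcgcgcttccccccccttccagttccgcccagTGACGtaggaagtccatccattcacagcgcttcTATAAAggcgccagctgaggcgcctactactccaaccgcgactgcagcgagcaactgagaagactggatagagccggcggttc
Junb: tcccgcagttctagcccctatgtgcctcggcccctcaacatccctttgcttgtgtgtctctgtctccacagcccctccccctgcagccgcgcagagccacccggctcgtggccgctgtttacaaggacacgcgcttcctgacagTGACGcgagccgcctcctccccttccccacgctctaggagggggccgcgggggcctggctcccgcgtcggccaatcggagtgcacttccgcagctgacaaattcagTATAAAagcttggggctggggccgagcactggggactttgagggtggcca
Jun: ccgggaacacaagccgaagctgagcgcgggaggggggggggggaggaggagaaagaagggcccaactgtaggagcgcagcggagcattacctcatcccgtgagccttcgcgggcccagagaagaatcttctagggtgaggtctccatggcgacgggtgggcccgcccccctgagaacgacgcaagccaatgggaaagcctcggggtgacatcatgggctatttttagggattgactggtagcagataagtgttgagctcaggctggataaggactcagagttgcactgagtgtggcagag

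The Fos window held TATAAA beginning 33 bases upstream of the start and TGACG at 129 and 66 bases upstream. The Junb window held TGACG 106 bases upstream and TATAAA at base 1 of the RefSeq start; the GENCODE start of Junb lies 30 bases downstream of the RefSeq start. In the Jun window neither was found. Of 32851 promoter windows of this length, 13.6% held TATAAA and 20.8% held TGACG, the latter motif being chosen after the sequences were seen. TGACG is therefore no independent check, and a link between these matches and the changes was not tested. No window of the 3 held the full CRE (TGACGTCA, 1.79% of all windows), an AP-1 site (TGANTCA, 7.81%), a CArG box (1.63%), an E-box (CACGTG, 7.15%), an EGR site (GCGNGGGCG, 5.55%), an ISRE core (3.44%) or a GAS motif (TTCNNNGAA, 8.30%). TGACG forms part of TGACGTCA. Only exact matches to these patterns were counted. The Jun window holds tgacatca, which differs from TGACGTCA by 1 base and was not counted. Egr1 and Myc were not searched for any motif. Sequence farther upstream was not searched either, so the absence of a motif holds for these windows and not for the genes. The matches describe letters in a short window, not bound sites.

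Junb encodes a Jun family protein that in many settings restrains the activity of c-Jun. It lies on chromosome 8 from 87498383 to 87502617 in mm9, on the minus strand, in a row that holds 3 transcripts whose reads cannot be separated. Its protein-coding GENCODE transcript has 1 exon and 1809 bases. Junb was 10.6 FPKM in the naive and 5.47 FPKM in the pretreated library, a change of -0.84. Without the pseudocount it was also just short of 2-fold, at a log2 ratio of -0.95. Of all loci compared, 10.5% had a lower change than Junb. Within its own class of level, a mean FPKM from 5 to under 10, 95% of changes at 1620 loci lay between -1.29 and 0.94, so Junb fell inside that range. The authors' deposited table gives Junb a q-value of 0.183 and makes no call; the 95% interval of its log2 ratio ran from -1.92 to 0.013. At a 1.5-fold threshold Junb joined Fos, giving 2 of 5 genes lower, against 20.6% of all loci compared; 7.49% were higher by as much. At 4-fold, 0 genes passed on the log2(FPKM + 1) scale, against 1.4% of loci lower and 0.968% higher. On the plain ratio, Fos passed 4-fold, at a log2 ratio of -2.0015; in its class of level 9 of 1692 loci above 0 in both libraries (0.532%), Fos included, did so.

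Jun encodes c-Jun, the best known AP-1 subunit, and lies on chromosome 4 from 94715727 to 94718913 in mm9, on the minus strand, as a single exon with 1 transcript in its row. It had the lowest naive level of the 5 genes, at 1.21 FPKM, and was 0.958 FPKM in the pretreated library. Its change was -0.18, close to the median of all loci compared, and 48.8% of those loci had a lower change. The authors' deposited table gives Jun a q-value of 0.671, and the 95% interval of its log2 ratio, from -1.24 to 0.56, takes in both a 2-fold decrease and no change.

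Ratios between the AP-1 genes were then compared within each library. In the naive library the FPKM of Fos was 2.26 times that of Jun, and in the pretreated library the FPKM of Jun was 1.402 times that of Fos. Junb exceeded Fos 3.87 times in the naive and 8.01 times in the pretreated library. Junb exceeded Jun 8.74 times in the naive and 5.71 times in the pretreated library. The difference between 2 genes in log2 ratio was given a 95% interval from their implied standard errors, taken as independent; it covers the reads of these libraries only and was added after the values were seen. Fos minus Jun was -1.66 (-3.02 to -0.31), and Fos minus Junb was -1.05 (-2.45 to 0.35). Of all 10 pairs among the 5 genes, 3 had an interval without 0, with no adjustment for the number of pairs: Fos against Jun, Egr1 and Myc.

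Egr1 encodes an early growth response zinc-finger factor, a standard readout of SRF-dependent induction. It lies on chromosome 18 from 35020861 to 35024610 in mm9, on the plus strand, with 1 transcript in its row. Its level was 13.6 FPKM in the naive and 11.3 FPKM in the pretreated library, above 81.3% and 80.2% of loci with a transcript ID. The change was -0.24, and 43.5% of all loci compared had a lower one. The authors' deposited table gives a q-value of 0.686. The 95% interval of its log2 ratio ran from -0.98 to 0.46. Fos minus Egr1 was -1.74 in log2 ratio (-2.98 to -0.50).

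Myc encodes c-Myc, which is induced by serum with slower kinetics than Fos in fibroblasts. It lies on chromosome 15 from 61816896 to 61822035 in mm9, on the plus strand, in a row that holds 3 transcripts. It was the highest of the 5 genes in both libraries, at 16.2 FPKM in the naive and 16.1 FPKM in the pretreated library. The change was -0.0064, and 62.2% of all loci compared had a lower one. Its direction depended on the scaling: centred on the median of all loci compared, the change of Myc was 0.15 and those of the other 4 genes stayed below 0. The authors' deposited table gives a q-value of 0.988, and the 95% interval of the log2 ratio was the narrowest of the 5, from -0.37 to 0.36. A 2-fold change of Myc in either direction lies outside that interval, which covers the reads of these libraries only.

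Ordered by level per length in the naive library, the genes ran Myc, Egr1, Junb, Fos and Jun, and in the pretreated library Myc, Egr1, Junb, Jun and Fos. Myc exceeded Egr1 1.19 times in the naive and 1.42 times in the pretreated library. Egr1 exceeded Junb 1.28 times in the naive and 2.07 times in the pretreated library. Whether neighbours in this order differ beyond the spread between cultures cannot be said with 1 library per group. If the scTSS-seq label of the samples holds, reads may not cover whole transcripts. Levels per length, and so this order and the ratios between genes within a library, could then depend on transcript length.

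**Figure D3:**
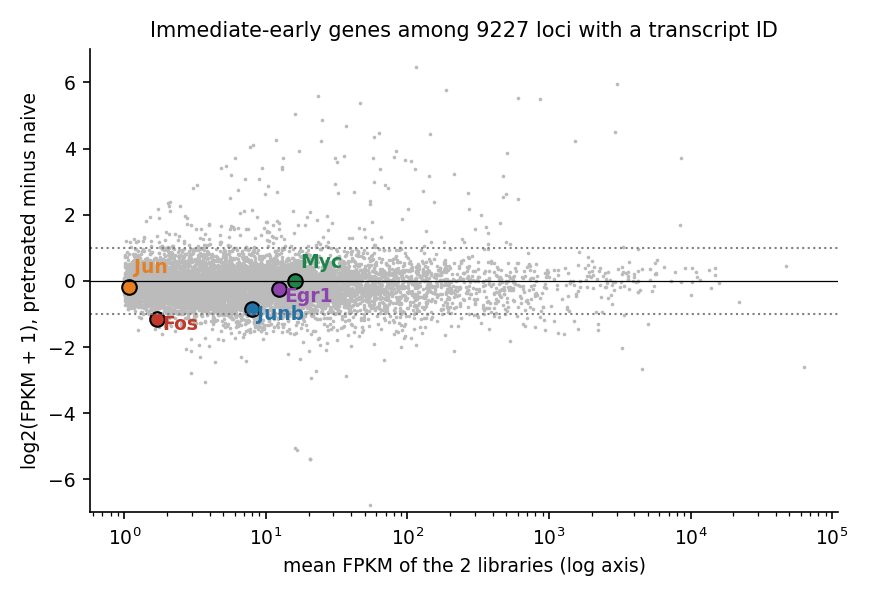
Change of log2(FPKM + 1), pretreated minus naive, against mean FPKM (log axis) for loci with a transcript ID and a mean FPKM of at least 1 (grey), with the 5 genes in colour; dotted lines mark 2-fold. Fos, at -1.15, lies below the lower line; Junb, at -0.84, lies above it, and Jun, Egr1 and Myc lie within the bulk of the loci.

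Each gene was also set beside its neighbours on the chromosome. The 3 nearest loci on each side with a transcript ID and a mean FPKM of at least 1 were taken for each gene, 30 in all, chosen by position. Their distances ran from 171 bp (Junb) to 3796568 bp (Myc), so not all are close neighbours. For Myc the nearest lay 47507 bp away and the next 2098066 bp. By Fos and by Egr1, a pair of the 6 loci has the same coordinates. The 6 loci around Fos changed by between -0.13 and 0.37, with a median of -0.02, and 0 of them were as low as Fos. Around Junb, the 6 loci ran from -0.57 to 0.78, and again 0 were as low as Junb. The locus that ends 171 bp from the Junb row held 433 FPKM in the naive and 468 FPKM in the pretreated library, a level far above that of Junb. Around Jun the changes ran from -0.76 to 0.20, and 4 of 6 loci were lower than Jun. Around Myc they ran from -0.93 to 0.22, with 4 of 6 lower than Myc. Around Egr1 they ran from -1.60 to 0.21, with 3 of 6 lower than Egr1. Of the 30 flanking loci, 1 was past 2-fold, a locus on the right of Egr1 that went from 120.7 FPKM in the naive to 39.1 FPKM in the pretreated library, a change of -1.60, lower than that of Fos. In the authors' deposited table, 4 of the 30 were called lower and 0 higher.

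**Figure D4:**
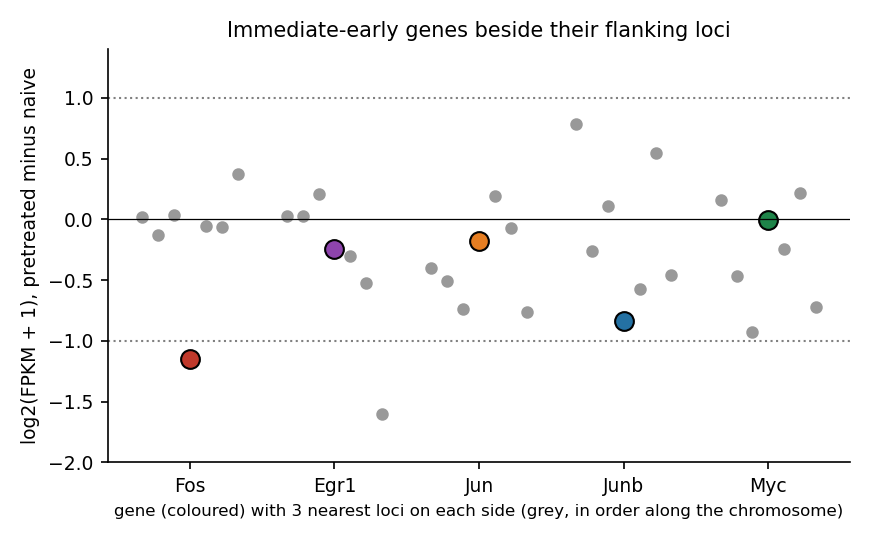
Change of log2(FPKM + 1), pretreated minus naive, for each gene (coloured, black edge) and for the 3 nearest loci on each side in chromosome order (grey); dotted lines mark 2-fold. Fos, at -1.15, and Junb, at -0.84, lie below all 6 of their flanking loci, while Egr1, Jun and Myc lie among theirs.

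The mRNAs of the 5 genes share AU-rich pentamers (ATTTA), a feature linked to rapid decay of early-response mRNAs. In the 3′ UTR of the GENCODE transcript with the longest coding sequence, Fos and Jun each held 4 pentamers, and Junb, Myc and Egr1 each held 2. The median over 21037 protein-coding genes was 1, and 61.7% of those genes held at least 1. Per kilobase of 3′ UTR, Fos held 4.91, Myc 4.52, Junb 4.12, Jun 3.24 and Egr1 1.64, against a median of 1.13 over all genes. The nonamer TTATTTATT occurred 1 time in Fos and 0 times in the other 4 genes, and was present in 6.97% of all genes. The part of these elements in any change was not tested. This count was added after the expression values were seen.

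A list of 30 other early-response genes, among them Fosb, Jund, Egr2, Ier2, Atf3, Dusp1 and Nr4a1, could not be read from the table. The table carries UCSC transcript IDs, and of 38980 distinct ones, 0 matched an entry in the tables of gene names. For the same reason, 10 fibroblast markers and 8 markers of blood, epithelial and endothelial cells could not be read, and the labelled cell type was not checked. In bulk RNA, fewer cells transcribing a gene and less RNA per cell cannot be told apart, which bears on the lower value of Fos.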

How the data were processed

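Per the labels, polyA RNA of 2 libraries, naive and pretreated MEFs at 1 h of interferon-beta, was sequenced. TopHat and Cufflinks 1.2.1 and the build mm9 are named in the submitters' processing notes; the annotation, filters and scaling between libraries are not given in the sources used here. The authors deposited FPKM values per locus. For the pair of libraries they deposited a fold change (log2), a score used as test statistic, a p-value and a q-value. Apart from loci at 0 in 1 library, deposited p-values equal the 2-sided normal tail of the statistic to within 2.86e-06. The number of reads per library is unknown. Its ratio between the libraries was estimated from loci listed at 0 in 1 library, assuming that FPKM was scaled by mapped fragments alone. Loci were used whose deposited p-value is the upper normal tail beyond the square root of 1 to 4 whole reads.

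Columns were matched to samples by the names in each row. Starts were raised by 1: raised, 21.8% of loci with an ID had the span of a RefSeq gene of their chromosome, against 5.40% unraised. Changes are differences of log2(FPKM + 1) at a mean FPKM of at least 1, leaving out loci of failed status (Python 3.11.15, pandas 2.3.3, numpy 2.4.6, scipy 1.17.1), and the script was tested on simulated data. The rule names all 5 genes whatever their values. Genes, lists and motifs were chosen with earlier results of these data known. Alternatives varied the pseudocount, centring, filter, threshold and q-value adjustment. Promoters are from RefSeq (GRCm38.p6) and transcripts from GENCODE M21. For the motifs in the 5 genes, promoter entries on chromosome 18, where Egr1 lies, were left out. The shares over all promoter windows kept that chromosome. In all, 3 of the 5 genes had a promoter entry used here, and Egr1 and Myc were not searched for motifs.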

Additional observations from a re-analysis of the deposited data

How the results depend on the processing

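Of 52 recomputed values, 46 moved by less than the tolerance and 6 by more; for a change the tolerance was 1 implied standard error of the gene (for the median, the median of these), and for a number of genes 1.5 times. The largest median subtracted in centring, -0.159, was smaller in size than the smallest tolerance of a gene, 0.186 for Myc. No change could therefore pass its tolerance by centring, and its place among the 46 is no sign of stability. Changes within that tolerance still shifted: centring on all loci compared took Fos to -0.99, short of 2-fold, Egr1 and the median of the 5 genes to -0.08, and Jun to -0.02. The change of Fos was -1.86 with a pseudocount of 0.1 and -2.0015 with none, against -1.15. The number of genes at least 2-fold lower, 1 as reported, was 2 at a 1.5-fold threshold (Fos and Junb), 0 at a 4-fold threshold, 0 when centred on all loci compared, and 0 at a mean FPKM of at least 5, a filter that leaves out Fos and Jun. Centred on loci with a transcript ID, Fos was -1.02 and the number stayed at 1. The number at least 2-fold higher was 0 under every alternative run. Myc was above 0 under 2 of the 3 centrings, at 0.15 and 0.13. The authors' call of Fos held at a q-value under 0.01 and when adjusted over loci with a transcript ID (q-value 0.00212). Leaving out a library would empty its group. No paired analysis was possible because the groups hold a single library each. Low values are less certain in the pretreated library, where 1 read was worth 2.03 naive reads at 14 short loci.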

Other observations

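A pair of short loci without a transcript ID lies just upstream of the Jun start, and they differed between the libraries in opposite directions. They were found among unannotated loci within 10 kb of each gene, a search made after the values were seen. The nearer one, on chromosome 4 from 94721136 to 94721525 (mm9), begins 2223 bp upstream of the Jun start, and had 1.84 FPKM in the naive library and was listed at 0 in the pretreated library. The farther one, from 94721642 to 94722118, begins 2729 bp upstream, and had 1.03 FPKM in the naive and 2.94 FPKM in the pretreated library. The authors' deposited table calls the nearer locus lower, with a q-value of 0.0261, and makes no call for the farther one, with a q-value of 0.159. The value of 1 read was interpolated over span from other unannotated loci. By it, the nearer locus would hold about 12 naive and 0 pretreated reads, and the farther one about 10 naive and 14 pretreated reads. The deposited p-value of the nearer locus in the authors' test, 0.00295, is larger than 12 reads would give under the rule used for depth. That value of 1 read came from loci of 1 to 4 reads, so these counts are uncertain. Jun itself was 1.21 and 0.958 FPKM. Whether these short loci belong to 1 transcript was not tested. The search found 1 other locus without a transcript ID, a span of 12516 bp near Junb, with 1.76 FPKM in the naive and 1.79 FPKM in the pretreated library. It has the same coordinates as a flanking locus of Junb that carries a transcript ID. That locus had 17.6 FPKM in the naive and 14.5 FPKM in the pretreated library.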
